A study of Mus musculus with 4 samples.

Results

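The 7 genes described here are a set of duct function genes: the anion channel gene Cftr, the transporter genes Slc4a4 and Slc26a6, the carbonic anhydrase gene Car2, the water channel gene Aqp1, and the secreted protein genes Spp1 and Ambp. They were chosen by name, as 7 of the 32288 genes in the deposited count table. The aim was to compare a small Ductal-like type with the mucin-producing MucinDuctal type among pancreas cells labelled as descending from acinar cells. The 13362 cells come from 4 mice, 2 given caerulein (a cholecystokinin analogue that injures the exocrine pancreas) for 2 weeks and 2 given it for 4 weeks. All 4 mice carried Ptf1aCre-ERTM;ROSAYFP/+ on a background backcrossed into CD-1, were 10 weeks old when injury began, and had received tamoxifen by gavage, which switches on EYFP through a Cre made under control of Ptf1a, an acinar gene. EYFP-positive cells were sorted and their RNA was counted as unique molecular identifiers (UMIs) with 10x Genomics 3' chemistry. The label therefore marks descent from cells in which this Cre was active, and uninjured pancreas was not analysed here.

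Pancreatic ducts flush the acinar enzymes into the gut with a bicarbonate-rich fluid. Carbonic anhydrase makes bicarbonate inside the duct cell, the sodium bicarbonate cotransporter brings more in from the blood side, and CFTR works with chloride-bicarbonate exchangers of the SLC26 family to release it into the lumen, while water follows through aquaporins. SPP1 (osteopontin) is a secreted phosphoprotein widely used as a duct marker, and AMBP is the precursor of alpha-1-microglobulin and bikunin, a protease inhibitor best known from the liver.

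In the deposited annotation, 139 cells were Ductal-like and 3983 were MucinDuctal. The remaining types were Acinar (3698 cells), Acinar/MucinDuctal (1955), Tuft (1280), EEC (enteroendocrine, 1208), Acinar.Prolif (894) and Tuft/EEC.Progenitor (205). Each mouse gave 2814 to 3974 typed cells and 60224505 to 90547790 UMIs, and every typed cell held at least 1 EYFP UMI. Ductal-like cells were few, with 38 and 56 cells at 2 weeks, then 23 and 22 cells at 4 weeks, and with median depths of 31156.5, 38505.5, 8889 and 21039 UMIs per cell. The first 4-week mouse thus had the shallowest Ductal-like cells. Cell barcodes shared between libraries numbered 24. Levels below are CPM, counts scaled to the same total for every sum, of the UMIs summed over the cells of 1 type in 1 mouse, listed as 2-week mouse 1, 2-week mouse 2, 4-week mouse 1 and 4-week mouse 2, and the mouse is the replicate (n = 4, or n = 2 per time point).

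The type names were checked against duct, mucin and acinar genes. The standard duct markers Sox9 and Krt19 are given for this check, outside the rule for named genes. Sox9, the duct transcription factor, stood at 730 CPM on average in Ductal-like and 639 in MucinDuctal cells, and Krt19, a duct keratin, at 288 and 556. Gastric-type mucous genes separated the types more widely: the 12 mucin and gastric markers found in the table summed to 9277 to 38376 CPM in Ductal-like and 37645 to 193798 in MucinDuctal cells. Both types therefore held duct genes, with the mucous program lower in the Ductal-like cells of every mouse.

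Promoter windows are shown for Spp1 and Ambp, the members that were higher in Ductal-like than MucinDuctal cells, and for Aqp1, which was lower. Each covers the 250 bases before the gene's start (RefSeq, GRCm38.p6, 5′ to 3′ on the gene's strand), and 6 of the 7 members matched this table, with Car2 unmatched. Capitals mark the CCAAT box, a common promoter element, on either strand.
Spp1 (chr5:104434861-104435110, plus strand): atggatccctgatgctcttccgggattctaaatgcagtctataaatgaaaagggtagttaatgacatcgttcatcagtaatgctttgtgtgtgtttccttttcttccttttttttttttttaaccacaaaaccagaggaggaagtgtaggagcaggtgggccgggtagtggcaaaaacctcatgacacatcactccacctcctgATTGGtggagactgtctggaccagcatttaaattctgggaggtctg
Ambp (chr4:63154173-63154422, minus strand): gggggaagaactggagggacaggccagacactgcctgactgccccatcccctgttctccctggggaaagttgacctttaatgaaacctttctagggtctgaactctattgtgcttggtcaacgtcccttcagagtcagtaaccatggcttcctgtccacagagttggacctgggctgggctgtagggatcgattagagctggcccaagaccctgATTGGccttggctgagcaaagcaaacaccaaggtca
Aqp1 (chr6:55336049-55336298, plus strand): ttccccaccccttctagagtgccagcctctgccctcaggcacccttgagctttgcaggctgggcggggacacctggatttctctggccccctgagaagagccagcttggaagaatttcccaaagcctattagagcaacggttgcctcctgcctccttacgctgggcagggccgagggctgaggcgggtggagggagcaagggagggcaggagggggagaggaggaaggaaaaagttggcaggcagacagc
The Spp1 window shown held a CCAAT box 46 bases before the start, the Ambp window one 36 bases before it, and the Aqp1 window none. The table lists a second Spp1 window (chr5:104435942-104436191), not printed, which held no CCAAT box. Whether the box goes with the direction of a member was not tested, since few members had both a direction and a window. Among the members that were neither higher nor lower, Slc26a6 held 2, at 206 and 14 bases before the start. The second Slc4a4 window held 1, at 26 bases. The Cftr window and the first Slc4a4 window held none. The CCAAT box occurred in 33.9% of the 32851 promoter windows of the table.

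The comparison of Ductal-like with MucinDuctal cells asks whether the Ductal-like cells carry more of the fluid-secreting machinery of a duct. The members did not all go one way. Spp1 and Ambp were higher in Ductal-like cells, Car2 and Aqp1 were lower, and Cftr, Slc4a4 and Slc26a6 did not reach a 2-fold difference. The difference was taken within each mouse as log2 of the ratio of CPM + 1, and a gene was counted when the mean ratio was at least 2-fold and all 4 mice went the same way. No p-value is given, because the authors' types were made from the same counts. By this rule 2 members were higher and 2 were lower. Over the 8437 genes with at least 10 CPM in at least 4 of the 8 sums, 9.84% were higher and 2.86% were lower. The median gene of that table lay 0.27 log2 units above 0, and the members' values below are 0.27 smaller when read against it.

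**Figure D1:**
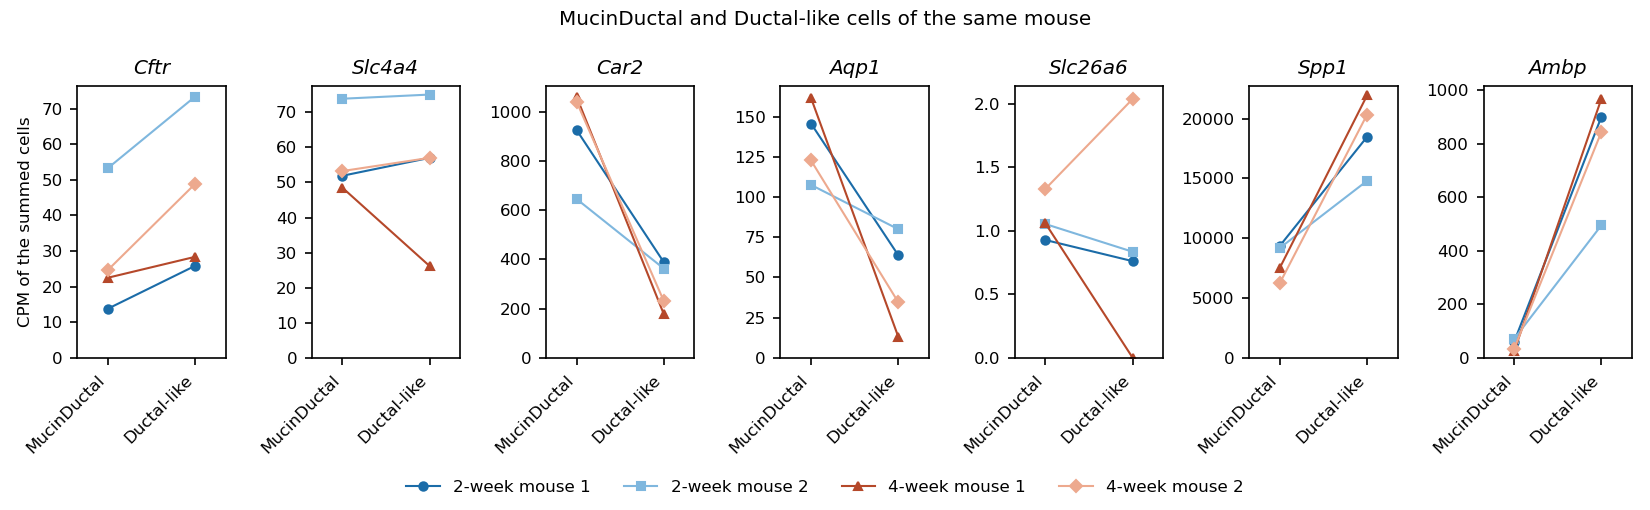
CPM of each gene in the summed MucinDuctal and Ductal-like cells, with lines joining the types of the same mouse (1 colour and symbol per mouse; each panel has its own linear axis from 0). Car2 and Aqp1 fall along all 4 lines from MucinDuctal to Ductal-like, while Spp1 and Ambp climb along all 4.

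Cftr (chr6:18170687-18322770) encodes the apical anion channel that is mutated in cystic fibrosis. Its level was 25.8, 73.4, 28.4 and 48.9 CPM in Ductal-like cells and 13.8, 53.3, 22.5 and 24.7 CPM in MucinDuctal cells. Ductal-like cells were higher in 4 of 4 mice, by 0.65 ± 0.31 log2 units (SD, n = 4), a 1.57-fold difference that stayed below the 2-fold rule. The mice differed as much as the types: the second 2-week mouse was highest in both. With library sizes scaled by TMM (edgeR's trimmed mean scaling) the mean was 0.29, and without cells holding exactly 1 EYFP UMI it was 0.25, both outside 1 SD of the value above. At least 1 Cftr UMI was found in 52.6%, 83.9%, 39.1% and 31.8% of Ductal-like cells, against 19.9%, 52.5%, 23.1% and 23.1% of MucinDuctal cells. When each cell was thinned to 1500 UMIs, to set depth aside, the shares averaged 5.89% and 3.84%.

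Slc4a4 (chr5:88793858-89239656) encodes NBCe1, the basolateral sodium bicarbonate cotransporter. Its level was 57.0, 75.1, 26.2 and 57.0 CPM in Ductal-like cells and 51.9, 73.9, 48.6 and 53.3 CPM in MucinDuctal cells. The types were close in 3 mice, and only the first 4-week mouse stood apart, on 12 UMIs in its 23 Ductal-like cells. The mean difference was -0.15 ± 0.48 log2 units (SD, n = 4), smaller than its spread, and 0.08 without that mouse. Slc26a6 (chr9:108854043-108913049), the apical chloride-bicarbonate exchanger PAT1, was barely detected in either type. Ductal-like cells of the 4 mice gave 1, 2, 0 and 1 UMIs. The 0 of 23 cells in the first 4-week mouse allows a share of up to 13.0% of cells with a UMI and a level of up to 6.55 CPM. MucinDuctal cells held 0.93, 1.05, 1.06 and 1.33 CPM, and the gene did not pass the 10 CPM filter, so no difference was detectable at this depth.

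Car2 (chr3:14886269-14900770), the cytosolic carbonic anhydrase that supplies bicarbonate, went the other way. Its level was 388, 363, 177 and 230 CPM in Ductal-like cells and 927, 646, 1062 and 1042 CPM in MucinDuctal cells, and the 2 sets of mice did not overlap. The mean difference was -1.71 ± 0.81 log2 units (SD, n = 4), and the levels in Ductal-like cells were 0.420, 0.562, 0.167 and 0.222 of those in MucinDuctal cells. Car2 was still found in most Ductal-like cells: 97.4%, 96.4%, 65.2% and 81.8% held a UMI, against 97.6% to 99.0% of MucinDuctal cells. After thinning to 1500 UMIs the shares were 23.4% to 40.0% and 57.4% to 72.3%, without overlap.

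Aqp1 (chr6:55336299-55348555) encodes a water channel of the plasma membrane and was lower in Ductal-like cells by a similar amount. Its level was 63.9, 80.1, 13.1 and 34.6 CPM in Ductal-like cells and 146, 108, 162 and 123 CPM in MucinDuctal cells, again without overlap. The mean difference was -1.73 ± 1.32 log2 units (SD, n = 4). It varied widely between mice, from -0.42 in the second 2-week mouse to -3.53 in the first 4-week mouse, where 6 UMIs were counted. Without that mouse the means were -1.13 for Aqp1 and -1.42 for Car2, and both still passed the 2-fold rule in 3 of 3 mice.

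Spp1 (chr5:104435111-104441053) encodes osteopontin. Its level was 18473, 14799, 21942 and 20331 CPM in Ductal-like cells and 9356, 9179, 7517 and 6241 CPM in MucinDuctal cells. The types did not overlap, and the mean difference was 1.23 ± 0.48 log2 units (SD, n = 4). Single Ductal-like cells held a median of 632.5, 566, 226 and 414 Spp1 UMIs, and no Ductal-like cell held fewer than 16. MucinDuctal cells held a median of 133, 180, 62 and 58, with cells at 0 in 3 of the 4 mice. The size of this difference depended on the scaling and on which MucinDuctal cells were used. With TMM library sizes the mean was 0.86, below the 2-fold rule. TMM also evened the calls over all genes, from 830 higher and 241 lower to 493 higher and 460 lower, and moved the median gene from 0.27 to -0.09. Against MucinDuctal cells of the authors' cluster 1 alone the Spp1 mean was 0.65, and against cluster 2 alone it was 1.73.

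Ambp (chr4:63143275-63154172) had the largest mean ratio of the 7 members. Its level was 902, 496, 969 and 845 CPM in Ductal-like cells and 60.0, 70.8, 25.1 and 34.4 CPM in MucinDuctal cells. The mean difference was 4.12 ± 1.04 log2 units (SD, n = 4), with single mice at 14.8-fold, 6.92-fold, 37.2-fold and 23.9-fold, and 0.593% of the genes compared had a larger mean ratio. Ambp UMIs were found in all Ductal-like cells of 3 mice and in 21 of 23 cells of the first 4-week mouse (91.3%, exact Clopper-Pearson 95% interval 72.0% to 98.9%, counting error only). The median Ductal-like cell held 28.5, 20.5, 15 and 16 Ambp UMIs, and the median MucinDuctal cell held 0 in every mouse. Across the alternatives tried, TMM included, the mean stayed between 3.33 and 4.80.

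Markers of other cells differed between the sums as well. Acinar markers summed to 31759, 28760, 123331 and 30459 CPM in Ductal-like cells and to 39882, 24712, 36096 and 29770 CPM in MucinDuctal cells. The first 4-week mouse, with the lowest Car2, Aqp1 and Slc4a4, was thus the one with the most acinar RNA in its Ductal-like cells, and the part of that RNA in the result was not tested. Leaving the acinar enzymes out of the library size changed no member's call. Enteroendocrine and islet markers summed to 8430, 694, 172 and 3546 CPM in Ductal-like cells and to 391, 271, 215 and 110 CPM in MucinDuctal cells. EEC cells carry Ambp too, but at 104, 105, 150 and 118 CPM, below the Ductal-like level in all 4 mice. Of the 18 markers, 1 (Gcg) was at 0 in the Ductal-like cells of all 4 mice. Immune markers were low: the 9 macrophage markers summed to 41.5 to 212 CPM in Ductal-like and 14.0 to 34.4 in MucinDuctal cells, and Ambp stood at 11.6 CPM in cells with macrophage markers. B cell markers reached 192 against 13.8 CPM in the first 2-week mouse, and T cell markers 136 against 6.65 CPM in the second 4-week mouse. Proliferation markers summed to 711, 215, 378 and 625 CPM in Ductal-like cells and to 75.2, 212, 34.9 and 70.3 CPM in MucinDuctal cells, higher in Ductal-like cells of all 4 mice. Endothelial marker sums were also higher in all 4, at 22.5 to 52.4 against 8.83 to 16.6 CPM. Mesothelial marker sums were lower in all 4, at a mean of 15.5 against 73.3 CPM. Only 1 marker of each list passed the 10 CPM filter, so these sums do not describe the lists as a whole. In every Ductal-like sum, 5 of the 6 endothelial and 4 of the 5 mesothelial markers were below 10 CPM. Tuft and fibroblast marker sums went in both directions. The part of these cells in the member ratios was not tested.

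The number of transport genes seen in a single cell was counted with and without a correction for depth. Of Cftr, Slc4a4, Car2 and Aqp1, a Ductal-like cell held a mean of 2.76, 3.32, 1.48 and 1.95 genes with a UMI, and a MucinDuctal cell 2.52, 2.85, 2.46 and 2.41. Ductal-like cells were thus ahead in the 2-week mice and behind in the 4-week mice. With every cell thinned to 5000 UMIs, a setting chosen once the values were known, the means were 1.28, 1.64, 0.87 and 1.00 in Ductal-like and 1.66, 1.74, 1.76 and 1.68 in MucinDuctal cells. MucinDuctal cells then held more of the 4 genes in 4 of 4 mice. Thinning to 5000 UMIs left out 1, 0, 8 and 0 Ductal-like cells and 3, 17, 56 and 23 MucinDuctal cells. The single genes did not all follow this count. Thinned to 1500 UMIs, Car2 was found on average in 31.7% of Ductal-like and 67.2% of MucinDuctal cells, and Aqp1 in 5.83% and 17.9%. Slc4a4, at 6.88% and 8.21%, went in both directions between mice. Cftr, at 5.89% and 3.84%, was higher in Ductal-like cells of all 4 mice. Without thinning, all 4 genes were seen together in 8 of 38, 29 of 56, 1 of 23 and 1 of 22 Ductal-like cells (21.1%, 51.8%, 4.35% and 4.55%). In MucinDuctal cells they were seen together in 11.6%, 28.2%, 10.7% and 10.1%, a lower share than in Ductal-like cells of the 2-week mice and a higher share at 4 weeks.

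Other genes of duct secretion went in both directions. Of 47 further ion, bicarbonate and fluid transport genes, 24 passed the 10 CPM filter. In Ductal-like cells 4 of these were higher, 5 were lower and 15 were neither, with a median of -0.41 log2 units. Over all genes 9.84% were higher and 2.86% lower, with a median of 0.27. With TMM library sizes, added as a setting for these lists once their values were known, 4 were higher and 9 lower, while 5.84% of all genes were higher and 5.45% lower. Without the first 4-week mouse 4 were higher and 3 lower, beside 9.04% and 1.87% of all genes. Over 14 alternatives 3 to 6 were higher and 3 to 9 lower, beside 5.69% to 14.1% and 1.59% to 5.45% of all genes. Kcnma1, the large-conductance calcium-activated potassium channel, averaged 20.9 CPM in Ductal-like and 0.32 in MucinDuctal cells (3.95 ± 0.58 log2 units, SD, n = 4). Kcnk5, a background potassium channel, averaged 21.8 and 2.22 CPM (2.89 ± 0.74). Kcnma1 and Kcnk5 passed the 10 CPM filter through their Ductal-like sums only. A gene that passes so can only come out higher in Ductal-like cells. At the other end stood Kcne3, a potassium channel subunit, with 93.8 and 287 CPM (-1.88 ± 1.24), and Slc9a2, a sodium-proton exchanger, with 10.1 and 37.4 CPM (-1.75 ± 0.63). Among 27 regulators of duct secretion 15 passed the filter, and 1 was higher, 1 was lower and 13 were neither, with a median of 0.26. These counts are close to the 9.84% higher and 2.86% lower over all genes, and the median to that of all genes, 0.27. Over the 14 alternatives none was higher in 4 (TMM among these) and none was lower in 6. The values past the 2-fold rule were those of Slc9a3r1, the scaffold NHERF1 that binds CFTR (1.02 ± 0.22), and Chrm3, the muscarinic acetylcholine receptor (-1.12 ± 0.51). Sctr, the secretin receptor, reached 0.99 ± 0.31 and Adcy6, an adenylyl cyclase, -0.53 ± 0.74, neither past 2-fold.

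Of 28 duct identity genes 26 passed the filter, 10 were higher in Ductal-like cells, 1 was lower and 15 were neither. Their median was 0.79 log2 units against 0.27 over all genes, of which 9.84% were higher and 2.86% lower. The split depended on the scaling: with TMM 7 were higher and 5 lower, with a median of 0.44 against -0.09 over all genes. Over the 14 alternatives 7 to 15 were higher and 1 to 5 lower. Cp, which encodes ceruloplasmin, averaged 659 CPM in Ductal-like and 7.21 in MucinDuctal cells (6.35 ± 0.42 log2 units, SD, n = 4). Pkhd1, the fibrocystin gene of the primary cilium, averaged 105 and 5.47 CPM (4.10 ± 0.60). With MucinDuctal means under 10 CPM, Cp and Pkhd1 needed Ductal-like sums to pass the filter, which leans such genes towards a high ratio. Tspan8, a tetraspanin, was lower (-1.67 ± 0.69), and Prom1, a surface glycoprotein of apical membranes, was at -0.94 ± 0.59 without reaching 2-fold. Of 21 genes listed as partners of Spp1 and Ambp 12 passed the filter, 7 were higher, 1 was lower and 4 were neither, with a median of 1.30. Whether each product binds osteopontin or bikunin was not checked. Itih3, Itga8, Itgb3, Mmp3 and Mmp9 were at 0 in the Ductal-like cells of all 4 mice. With TMM 6 were higher and 2 lower, beside the 5.84% and 5.45% of all genes. The inter-alpha-trypsin inhibitor heavy chain genes Itih5 (4.16 ± 0.98) and Itih4 (3.56 ± 0.89) headed that list. Genes can pass the filter through their Ductal-like sums alone, and which sums carried Itih5 and Itih4 past it is not given here. Itgb6, an integrin subunit of epithelia, was lower (-1.55 ± 0.34), and Cd44, an osteopontin and hyaluronan receptor, was at -0.75 ± 0.69. These lists were drawn up with earlier results of these data known.

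**Figure D2:**
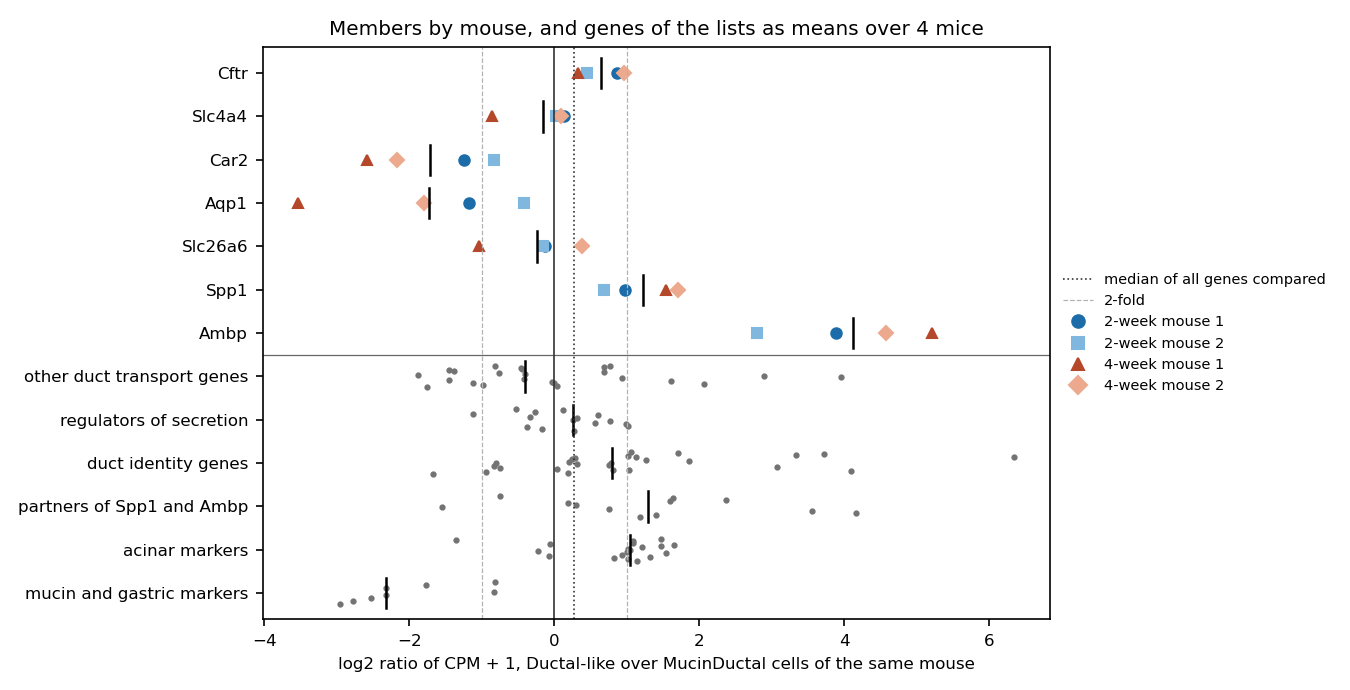
Log2 ratio of CPM + 1, Ductal-like over MucinDuctal cells of the same mouse. Coloured symbols are single mice for the 7 members, grey dots are genes of 6 lists (mean over 4 mice), short black bars are means or list medians, dashed lines mark 2-fold and the dotted line the median of all genes compared. The Ambp mice lie from 2.79 to 5.22 and the Aqp1 mice from -3.53 to -0.42, while the mucin and gastric markers all lie below 0.

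Acinar and mucous markers framed these differences. Of 19 acinar markers that passed the filter 10 were higher in Ductal-like cells, 1 was lower and 8 were neither. Their median was 1.04 against 0.27 over all genes, of which 9.84% were higher and 2.86% lower. The number higher fell to 4 with TMM, where 5.84% of all genes were higher and 5.45% lower. It was 6 without the first 4-week mouse, where 9.04% of all genes were higher and 1.87% lower. The ends of the list were Cpa1 at 1.65 ± 0.81 and Cela1 at -1.35 ± 0.69 log2 units (SD, n = 4). Of 8 mucin and gastric markers 6 were lower and none was higher (median -2.32), led by Tff2, a trefoil peptide of mucous neck cells, at 34953 CPM in MucinDuctal and 4870 in Ductal-like cells. With TMM all 8 were lower. Against MucinDuctal cells of cluster 1 alone 3 were lower and the median was -0.72, while 2.39% of all genes were lower with a median of 0.19. The smallest difference was that of Aqp5, another water channel, at -0.82 ± 0.79. Of the 12 such markers in the table, Muc5b and Gkn2 were at 0 in the Ductal-like cells of all 4 mice.

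The MucinDuctal type itself held 2 clusters of the authors that differed in these genes. Cluster 1 had more Spp1 than cluster 2 in all 4 mice, with 17180, 10055, 13582 and 8485 CPM against 6587, 5407, 6200 and 4588 CPM. Ambp followed, with 153, 76.7, 62.7 and 46.5 CPM in cluster 1 and 27.1, 45.4, 16.9 and 25.5 CPM in cluster 2. Car2 was lower in cluster 1, at 772, 624, 711 and 794 CPM against 982, 744, 1138 and 1225 CPM, and Aqp1 was lower there as well, at 77.1, 89.5, 147 and 91.9 CPM against 170, 186, 165 and 146 CPM. The 4 genes that set Ductal-like apart from MucinDuctal cells thus went in the same directions between cluster 1 and cluster 2, by description only, since the clusters were made from these counts. Cluster 1 made up 30.5%, 82.0%, 23.7% and 43.6% of the MucinDuctal cells, so the second 2-week mouse had a different mix from the other 3.

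Across all 8 types, each member had its own order of levels (mean ± SD over 4 mice, or over the 3 mice with at least 20 cells for Tuft/EEC.Progenitor). Cftr was highest in Ductal-like cells at 44.1 ± 22.1 CPM, then MucinDuctal at 28.6 ± 17.1 and Acinar/MucinDuctal at 18.1 ± 9.38, each neighbour lower in all 4 mice although the ranges overlapped. Slc4a4 stood at 56.9 ± 11.5 CPM in MucinDuctal and 53.8 ± 20.3 in Ductal-like cells, a pair that did not differ beyond its spread, and at 29.1 ± 6.31 in Acinar/MucinDuctal cells. Car2 was highest in MucinDuctal cells at 919 ± 191 CPM, and Aqp1 too, at 135 ± 24.0 CPM. Neither gene's MucinDuctal range overlapped that of the next type, Acinar/MucinDuctal, at 390 ± 75.0 CPM for Car2 and 70.3 ± 12.9 for Aqp1. For both genes the Ductal-like cells came next, at 290 ± 102 and 47.9 ± 29.9 CPM, and overlapped the Acinar/MucinDuctal cells.

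Spp1 stepped down from Ductal-like (18886 ± 3071 CPM) to MucinDuctal (8073 ± 1476) to Acinar/MucinDuctal cells (3729 ± 731) with no overlap between neighbours. In Tuft/EEC.Progenitor cells it stood at 2056 ± 1647 CPM, with a wide spread. Tuft, Acinar.Prolif, Acinar and EEC cells lay between 154 and 222 CPM on average, and these 4 overlapped. The share of cells with an Spp1 UMI in these 4 types was set against B and T cell marker cells. Whether those cells express Spp1 themselves was not tested. Cells without a deposited type that carried at least 3 B cell markers (616 cells, median depth 3371.5 UMIs) held Spp1 in 40.3% of cells and, thinned to 1500 UMIs, in 19.6%. Acinar, Acinar.Prolif, Tuft and EEC sums had median depths of 11136 to 32664.5 UMIs per cell. Before thinning, the shares in these deeper cells averaged 76.3%, 84.6%, 55.5% and 54.7%, all above the 40.3% of B cell marker cells. Where these types stood thus depended on thinning, so the comparison does not settle whether they express Spp1. The thinned shares were 17.2% in Acinar, 11.0% in Tuft and 13.3% in EEC cells on average, below the 19.6% of pooled B cell marker cells. Acinar.Prolif cells, at 19.9%, were next to that value, while Ductal-like cells were at 100.0% and MucinDuctal cells at 87.7%. Set mouse by mouse, the second 2-week mouse differed: its Acinar cells stood at 33.6% and its Acinar.Prolif cells at 35.0%, above its B cell marker cells at 27.3% and its T cell marker cells at 28.6%. In the second 4-week mouse the 19.7% of Acinar.Prolif cells lay between the B cell (17.3%) and T cell marker cells (23.1%). Tuft and EEC cells were below both in all 4 mice.

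Ambp was next highest, after Ductal-like cells (803 ± 211 CPM), in EEC cells at 119 ± 21.2 CPM, with no overlap between these. Acinar/MucinDuctal cells held 100.5 ± 12.0 CPM, more than MucinDuctal cells at 47.6 ± 21.4. Acinar cells held 52.0 ± 34.1 CPM. B cell marker cells held 7.90 CPM, with 0.95% of cells positive after thinning, and Tuft cells (8.60 CPM, 0.84%) stood near them on both values. Before thinning, 2.60% of B cell marker cells and 6.41% of the deeper Tuft cells held a UMI. Within the deposited EEC subtypes, mean Ambp was highest in ECL (Tac1+) cells at 303 ± 95.7 CPM. Ppy+ cells at 168 ± 55.3, Delta (Sst+) cells at 167 ± 67.0 and Epsilon (Ghrl+) cells at 94.4 ± 22.2 followed. Neighbours overlapped, with mice at 210 to 422, 103 to 238, 101 to 257 and 75.0 to 126 CPM in this order. EEC-Progenitor (Neurog3+) cells, at 18.7 ± 8.16 CPM, lay below all Epsilon values.

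**Figure D3:**
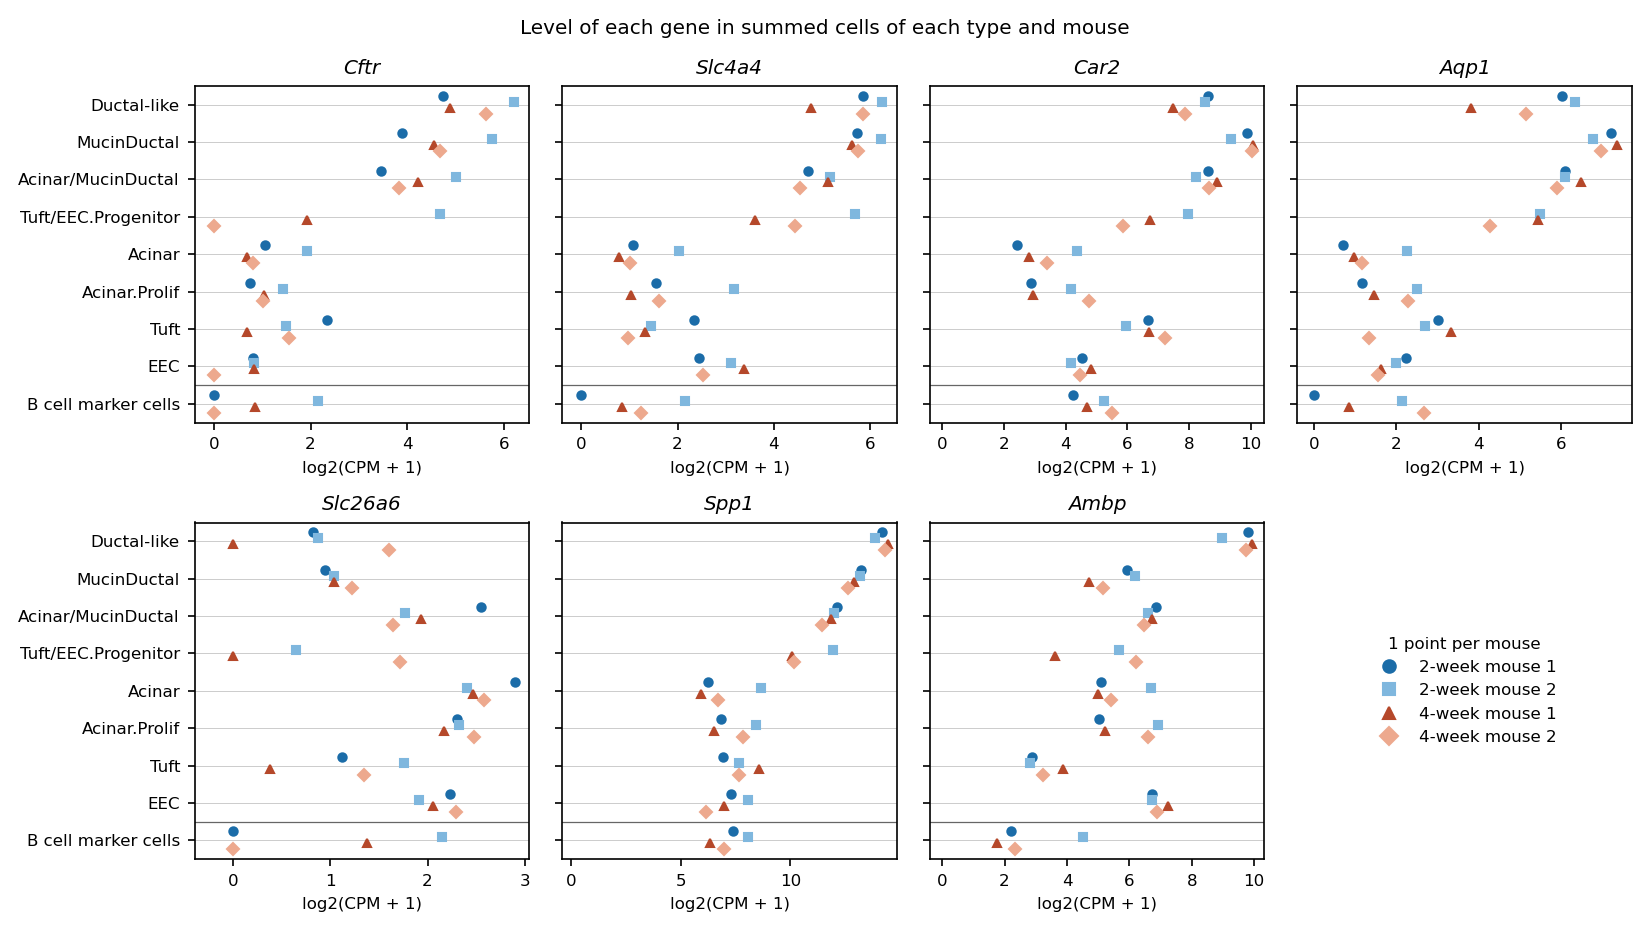
Level of each gene as log2(CPM + 1) in the summed cells of each type (rows), with 1 point per mouse and sums of fewer than 20 cells left out. The lowest row holds B cell marker cells without a deposited type; Spp1 in Acinar, Tuft and EEC cells overlaps that row, and Ambp in Ductal-like cells lies to the right of every other type.

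Slc26a6 was highest in Acinar cells at 5.08 ± 0.98 CPM, then in Acinar.Prolif cells at 4.01 ± 0.45 and EEC cells at 3.38 ± 0.52, with MucinDuctal cells at 1.09 ± 0.17 and Ductal-like cells at 0.91 ± 0.84. All neighbours in this order overlapped, from Acinar down to Ductal-like cells. After thinning, 0.79% of Acinar cells held a UMI, against 0.22% of B cell marker, 0.58% of T cell marker and 0.69% of macrophage marker cells. Macrophage marker cells held 4.48 CPM, next to the Acinar level. The 0.18% of MucinDuctal and 0.14% of Ductal-like cells were below all 3 of these. Before thinning, their shares were 2.33% and 2.69%, against 0.65%, 1.38% and 3.12% in B cell, T cell and macrophage marker cells. Car2 was found well outside the ducts in Tuft cells, at 103 ± 36.1 CPM and 12.7% of thinned cells, against 31.0 CPM and 6.53% in B cell marker cells. Its thinned shares in Acinar (1.88%), Acinar.Prolif (2.13%) and EEC cells (2.86%) were below that level, with T cell marker cells at 2.68%. Before thinning, these types stood at 19.2%, 25.1% and 17.6%, above the 13.8% of B cell and 6.13% of T cell marker cells. Cftr was found in 0.21% of thinned Acinar, 0.17% of Acinar.Prolif, 0.24% of Tuft and 0.08% of EEC cells. B cell, T cell and macrophage marker cells stood at 0.17%, 0.058% and 0.16%. These references rest on few cells with a UMI: 3 of 616, 1 of 652 and 11 of 1667. Before thinning, the shares in Acinar, Acinar.Prolif, Tuft and EEC cells were 3.36%, 3.29%, 2.82% and 0.68%. Those of the B cell, T cell and macrophage marker cells were 0.49%, 0.15% and 0.66%.

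Over the 31 sums of a type in a mouse with at least 20 cells, log2(CPM + 1) was compared between members, as a description of sums that share mice and libraries. Pearson's r was 0.93 between Car2 and Aqp1, 0.91 between Slc4a4 and Aqp1, and 0.92 between Slc4a4 and Spp1. Ambp gave r = 0.17 to Car2 and 0.25 to Aqp1, and Slc26a6 gave r = -0.64 to Car2. Among the 10245 genes with at least 10 CPM in at least 4 sums, the closest to each member were Ahnak, Bhlhe40 and 2810459M11Rik for Cftr (r = 0.94 for Ahnak), Frmd4b, Cldn2 and Ncmap for Slc4a4 (0.96 for Frmd4b), and Lgr4, Galnt4 and Spink4 for Car2 (0.96 for Lgr4). Kcne3, Foxq1 and Muc6 were closest to Aqp1 (0.97 for Kcne3), Tmem45a, Hes1 and Lamb2 to Spp1 (0.98 for Tmem45a), and Bag2, Rcn1 and Fgfr1 to Ambp (0.91 for Bag2). For Slc26a6, itself under the filter, Prss1, Gatm and Try5 were closest (0.81 for Prss1). Prss1 and Try5 belong to a family of near-identical trypsinogen genes, so their counts are uncertain.

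The second comparison, 4 weeks against 2 weeks of caerulein, was tested within each type in which every mouse had at least 20 cells. No member passed edgeR's quasi-likelihood test at an adjusted p of 0.05 in any type. Few genes of any kind did: 0% in Acinar, 0% in Tuft, 0% in EEC, 0.00995% in Acinar.Prolif, 0% in Acinar/MucinDuctal, 0% in Ductal-like and 0% in MucinDuctal cells. In MucinDuctal cells, 726 of 13463 genes had an unadjusted p under 0.05 and DESeq2 called 45. In Ductal-like cells it was 461 of 8748 genes, and DESeq2 called 1. Of the 7 members tested in MucinDuctal cells 1 had an unadjusted p under 0.05, and of the 6 tested in Ductal-like cells 2 did. Over the remaining types 246 to 739 genes had an unadjusted p under 0.05, and DESeq2 called 2 to 30. Among members there, Ambp had an unadjusted p under 0.05 in Tuft cells (0.82 log2 units higher at 4 weeks, SE 0.32, edgeR adjusted p = 0.683) and in EEC cells (0.44, SE 0.17, edgeR adjusted p = 0.986).

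The members with the smallest p in the duct types were Car2 and Aqp1 in Ductal-like cells and Ambp in MucinDuctal cells. In Ductal-like cells Car2 had 2-week values of 388 and 363 CPM, above its 4-week values of 177 and 230 CPM (log2 difference -0.87, SE 0.21, edgeR adjusted p = 0.826). Aqp1 had 2-week values of 63.9 and 80.1 CPM, also above its 4-week values of 13.1 and 34.6 CPM (log2 difference -1.57, SE 0.37, edgeR adjusted p = 0.826). Without the first 2-week mouse the adjusted p of Aqp1 passed the threshold, as did 3.11% of all genes in that fit. It also passed without the second, where 1.42% of all genes did. Without the first 4-week mouse the differences were -1.09 for Aqp1 and -0.73 for Car2, both with an edgeR adjusted p of 0.900. In MucinDuctal cells Ambp had 2-week values of 60.0 and 70.8 CPM and 4-week values of 25.1 and 34.4 CPM (log2 difference -1.02, SE 0.19, edgeR adjusted p = 0.824). DESeq2 gave an adjusted p of 0.0494, the lowest of the alternatives, which ran up to 1.00. The cluster mix also differed between those mice. The Ambp values of each cluster are given above by mouse, and the part of the mix in this difference was not tested.

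The other members gave smaller differences in both types. Slc4a4 in Ductal-like cells (57.0 and 75.1 CPM, then 26.2 and 57.0) differed by -0.66 log2 units (SE 0.34, edgeR adjusted p = 0.901). Spp1 in MucinDuctal cells (9356 and 9179 CPM, then 7517 and 6241) differed by -0.31 log2 units (SE 0.32, edgeR adjusted p = 0.873), and in Ductal-like cells by 0.37 (SE 0.30, edgeR adjusted p = 0.941). Car2 in MucinDuctal cells differed by 0.53 (SE 0.28, edgeR adjusted p = 0.824), with both 4-week mice above both 2-week mice. Cftr differed by -0.40 in both types, with SEs of 0.61 and 0.67, and its 2-week mice lay further apart than the time points. Of the other duct transport genes, 23 were tested in Ductal-like and 33 in MucinDuctal cells, and edgeR called none in either direction. Their medians were -0.13 and 0.02 log2 units, against -0.01 over all genes in each type, and 5 and 1 had an unadjusted p under 0.05.

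An interaction term, with the mouse as a block, tested whether the time difference in Ductal-like cells differed from that in MucinDuctal cells. edgeR called 0% of 13090 genes, 842 had an unadjusted p under 0.05, and DESeq2 called 19. None of the 6 members tested passed, but 4 of them had an unadjusted p under 0.05. For Car2 the log2 time difference in Ductal-like cells minus that in MucinDuctal cells was -1.49 (SE 0.28, edgeR adjusted p = 0.233). DESeq2 gave an adjusted p of 0.0170, and the alternatives ran from 4.15e-05 to 0.992. For Aqp1 it was -1.92 (SE 0.53, edgeR adjusted p = 0.662), for Ambp 1.44 (SE 0.36, edgeR adjusted p = 0.537) and for Spp1 0.64 (SE 0.23, edgeR adjusted p = 0.754). Without the first 2-week mouse, Car2, Aqp1 and Ambp passed the threshold, in a fit that called 3.91% of all genes. Without the first 4-week mouse the values were -1.34 for Car2, -1.24 for Aqp1, 1.07 for Ambp and 0.67 for Spp1, each with an edgeR adjusted p of 0.992. In plain values, the types lay further apart at 4 weeks for each of these genes: the Car2 ratio of Ductal-like over MucinDuctal cells was 0.420 and 0.562 in the 2-week pair of mice, then 0.167 and 0.222. The Ambp ratio was 14.8-fold and 6.92-fold in the 2-week pair, then 37.2-fold and 23.9-fold. These gaps rest on 23 and 22 Ductal-like cells at 4 weeks, and the first of these mice had the shallowest cells and the most acinar RNA. The MucinDuctal mix differed too: cluster 1 made up 30.5% and 82.0% at 2 weeks, then 23.7% and 43.6%. The second 2-week mouse, with the most cluster 1, had the smallest gap for Car2, Aqp1, Spp1 and Ambp. The part of the mix in these gaps was not tested.

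**Figure D4:**
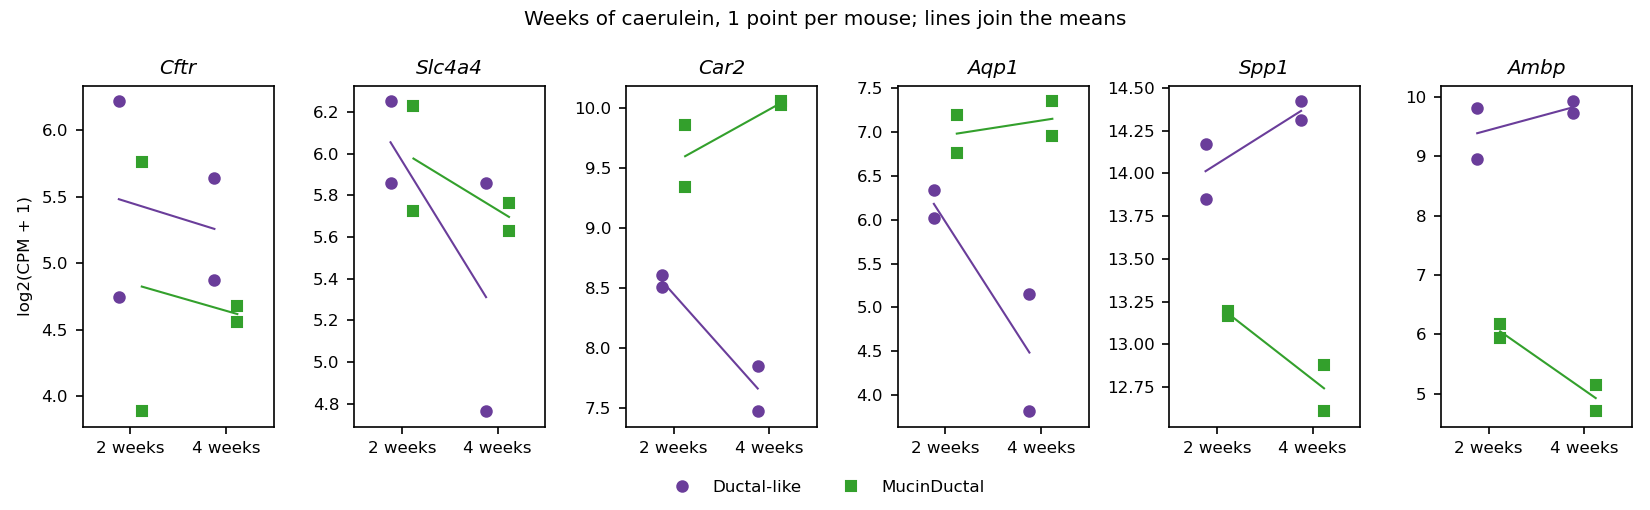
Log2(CPM + 1) of 6 members at 2 and 4 weeks in Ductal-like (circles) and MucinDuctal cells (squares), 1 point per mouse, with lines joining the means of the 2 mice; each panel has its own axis. For Car2, Aqp1, Spp1 and Ambp the lines spread apart from 2 to 4 weeks, and none of these differences passed edgeR's adjusted threshold.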

How the data were processed

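UMI counts per gene and cell, raw and without normalization, were deposited by the authors, with their cell type and cluster labels. Cell Ranger 4.0.0, Seurat 3.2.3 and build mm10 are named in the submitters' processing notes, and further filters are not given in the sources used here. The counts of the 13362 typed cells equalled those of the merged table of 21140 cells (summed difference 0). Cells were assigned to mice by the sample name in each cell name and summed per mouse and type.

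The 7 members and all gene lists were chosen with earlier results of these data known. Time was tested with edgeR 4.0.16 under R 4.3.3 (quasi-likelihood, robust, TMM, filterByExpr, Benjamini-Hochberg over all genes of a type), with DESeq2 1.42.0 as an alternative, in the 7 types with at least 20 cells in each mouse. The script was tested on simulated counts. Whether the mice of a time point came from separate cages or days is not given, so p-values measure the spread between these mice. Named genes are the members, the 2 highest and 2 lowest ratios of each list (fewer are given for the marker lists), and the 3 genes most like each member. Ratios used a pseudocount of 1 CPM. Thinned shares are expected values at 1500 UMIs, and cells below that were left out. No doublet caller was run here. Leaving out the deepest 5% of cells was an alternative.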

Additional observations from a re-analysis of the deposited data

Results flagged for a closer look

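The log2 ratio of Slc4a4, Ductal-like over MucinDuctal cells, was -0.8658 in the first 4-week mouse, apart from the 3 other mice at 0.13, 0.02 and 0.10. The gap exceeded Dixon's 95% critical value for 4 samples, a limit that chance passes in about 1 in 20 groups. The value rests on 12 UMIs, and the same sum had the shallowest cells and the most acinar RNA. The part of either in the value was not tested.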

How the results depend on the processing

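Of 98 recomputed member ratios 94 moved by less than 1 SD. The exceptions were Cftr with TMM library sizes (0.29) and without cells with exactly 1 EYFP UMI (0.25), and Spp1 against MucinDuctal cluster 1 only (0.65) or cluster 2 only (1.73), both added after the data were seen. Members higher in Ductal-like cells numbered 1 with TMM and 1 against cluster 1 only (Ambp in each), against 2 otherwise. Of all genes 5.84% were higher with TMM and 7.19% against cluster 1 only. The 2 lower members, Car2 and Aqp1, were called in every alternative run, where 1.59% to 5.45% of all genes were lower. Members called over time numbered 1 with DESeq2 (Ambp in MucinDuctal), 3 with no filter on low counts (Car2 and Aqp1 in Ductal-like, Car2 in Tuft) and 0 to 3 when 1 mouse was left out. These were 3 without the first 2-week mouse (Cftr in MucinDuctal, Aqp1 in Ductal-like, Car2 in Tuft) and 1 without the second (Aqp1 in Ductal-like). Over all genes of those types, the fits called 1.34%, 3.11% and 2.31% without the first and 1.42% (Ductal-like) without the second, and with no filter 0.488% in Ductal-like and 1.44% in Tuft. With 1 mouse left at a time point, its spread was assumed to be that of the other pair. DESeq2 with all mice called 0.319% of all genes over time in MucinDuctal cells. For the interaction, 1 member was called with DESeq2 (Car2), 3 with no filter, and 0 to 3 when 1 mouse was left out (3 without the first 2-week mouse, again Car2, Aqp1 and Ambp). These fits called 0.219%, 0.826% and, without that mouse, 3.91% of all genes. In the duct types, time differences that reversed when 1 mouse was left out were those of Cftr in Ductal-like (range -0.94 to 0.62) and MucinDuctal cells (-1.02 to 0.87) and of Slc4a4 in MucinDuctal cells (-0.38 to 0.064), each above 0 without the second 2-week mouse, and the Cftr interaction (-0.45 to 0.14), above 0 without the first 4-week mouse. In the other 5 types 17 of 30 member differences reversed, none of them past the threshold with all mice. In each case the cause was not tested. No paired analysis was possible between the time points because the labels tie no mouse of 2 weeks to a mouse of 4 weeks, and mouse numbers are only names. Depth limits Slc26a6, with 0 to 2 UMIs in each Ductal-like sum.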
